A study of Mus musculus with 8 samples.

Results

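The microRNAs (miRNAs) miR-223, miR-142, miR-150, miR-342 and miR-191, which blood-cell biology uses as lineage signs, were followed in LSK cells of mouse bone marrow. LSK stands for Lin-cKit+Sca1+, a sort gate that takes blood stem cells together with early progenitors. The 5 miRNAs, mmu-mir-223, mmu-mir-142, mmu-mir-150, mmu-mir-342 and mmu-mir-191 in the files, were taken by name from both deposited tables, with case, arm, star, copy number and the suffix for the form ignored. This gave 6 of 521 probes of the mature table, 1 each for miR-223, miR-150, miR-342 and miR-191 and 2 for the arms of miR-142. Of the 300 probes for precursors, 1 matched, that of miR-342. The WT mice were Tsc1f/f,Mx1-Cre- and the KO mice Tsc1f/f,Mx1-Cre+, so both groups carried the floxed Tsc1 allele. Each group had 4 samples, labelled biological replicates, with 1 array per sample. A sample is called a mouse below, though whether it pooled cells of several mice could not be checked. All mice were C57BL/6 females of 10 weeks. Both also received 400 µg of pIpC at 2 mg/ml in 7 intraperitoneal injections, and cells were sorted 10 days after the last one. Tsc1 restrains mTORC1, the growth kinase complex, and Mx1-Cre is driven by an interferon-inducible promoter that is not limited to blood cells. Raptor, an mTORC1 subunit, is also named as a conditional allele in the series' design text, but the genotype of every sample gives only Tsc1, which is used here.

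A miRNA gene is transcribed as a long primary RNA, cut in the nucleus to a hairpin and in the cytoplasm to a short duplex, of which usually one arm is kept and guides the silencing of messenger RNAs through its seed, bases 2 to 8. miR-223 is the classical myeloid miRNA, induced by the factors PU.1 and C/EBP and known to tune granulocyte production. miR-142 is made in nearly all blood cells, where both arms are used, and miR-150 accumulates in mature lymphocytes and represses Myb. miR-342 lies in the Evl gene and is found in lymphoid and myeloid cells, and miR-191 is expressed broadly, in one transcript with miR-425. In LSK cells these miRNAs are read as signs of lineage priming, the low expression of lineage genes before commitment.

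The sequences below show what the probes are named for, with the seed in capitals. The file gives arms for miR-142 alone; for the others the arm generally taken as the main product is shown. Sequences are from RefSeq on build GRCm38.p6, all from the plus strand, where 5 mature sequences of 4 of the miRNAs matched.
miR-223-3p: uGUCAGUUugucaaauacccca
miR-142-5p: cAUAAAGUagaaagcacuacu
miR-142-3p: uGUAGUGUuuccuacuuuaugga
miR-342-3p: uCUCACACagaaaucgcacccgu
miR-191-5p: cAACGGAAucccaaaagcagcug
These lie at chrX:96242884-96242905, chr11:87756867-87756887, chr11:87756903-87756925, chr12:108658680-108658702 and chr9:108568325-108568347 in the order shown. The 5 seeds differ from each other, and none was found in another of the 1679 mature miRNA names of the RefSeq table, so each stands on its own there. No sequence of miR-150 matched, so its seed was not checked. The gene of miR-342 lies within Evl and that of miR-191 within Dalrd3, with Mir425 as its nearest neighbour. The gene of miR-223 lies within F630028O10Rik, a long noncoding RNA gene. The gene of miR-142 overlaps Mir142b.

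Hairpins are shown for both members with more than 1 readout, with the arms that were probed or are taken as probed in capitals.
pre-miR-142: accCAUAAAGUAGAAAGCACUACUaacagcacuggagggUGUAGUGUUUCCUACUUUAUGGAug
pre-miR-342: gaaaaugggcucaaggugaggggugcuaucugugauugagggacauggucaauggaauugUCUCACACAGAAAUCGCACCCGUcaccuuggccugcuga
The first spans chr11:87756864-87756927 and carries both arms measured in the mature table. The second spans chr12:108658620-108658718 and is the form read by the precursor probe of miR-342.

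The values are array intensities on a linear scale, given below after division by 1000. Tests were run on log2 intensity with limma over each whole table, with Benjamini-Hochberg adjustment over all its names. Summed mature intensity per array lay between 27733 and 63877 in these units. Many probes of an array share one low level, taken as its background, which was 32.2 to 33.3 in samples 1 and 2 of both groups and 24.0 to 25.5 in samples 3 and 4. A name is called bright where its mean over the 8 arrays lay more than 1 log2 unit above background, as it did for 94 of 433 mature names. This mean covers both genotypes, so a name can be bright through WT, as miR-150 was (1.48 in WT, 0.66 in KO). KO 4 stood apart, with 74 mature names more than 1 log2 unit above background against 93 to 112 on the other arrays, so results are also given without it. The scanner label was 4001B for KO 3, 4002B for KO 4 and 4000B for every other array. Within samples 3-4 this label therefore cannot be told apart from genotype. The differing sets of samples 1-2 and samples 3-4 hold 2 mice of each group each, and no label names them as a batch. LSK markers are proteins and could not be checked on these arrays, nor could the deletion of Tsc1.

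The myeloid miR-223 and the broadly expressed miR-191 were more than 1 log2 unit above background in every LSK sample of both genotypes, as were miR-142-5p and miR-342. The lymphoid miR-150 was above background in all 8 mice, by 1.48 log2 units on average in WT and 0.66 in KO. It had lower values in all 4 KO mice than in any WT mouse (1.80-fold between the means), a difference that did not pass the test. Of the 6 mature probes of these miRNAs, 0 passed the threshold between genotypes in limma (adjusted p from 0.605 to 1.00), and 0 of all 433 mature names (0%) did. Without adjustment 1 of the 6, miR-150, had a p under 0.05, against 19 of the 433 (4.39%). All 6 had a negative log2 fold change (KO minus WT), where 64.9% of all mature names and 80.9% of the bright ones did. Their median was -0.29, beside -0.04 over all mature names and -0.24 over the bright ones. Without KO 4 these values turned: 2 of the 6 were negative and their median was 0.076, where 35.6% of all mature names were negative with a median of 0.057. Signal more than 1 log2 unit above background was seen for miR-223, miR-142-5p, miR-342 and miR-191 on 8 of 8 arrays. By this measure it was seen for miR-150 on 3 of 8 and for miR-142-3p on 0 of 8. In bulk RNA of sorted cells, fewer cells of a type and less of a miRNA per cell cannot be told apart. Levels of different probes are not compared, except that the differences of arms and of forms below are set between genotypes.

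**Figure D1:**
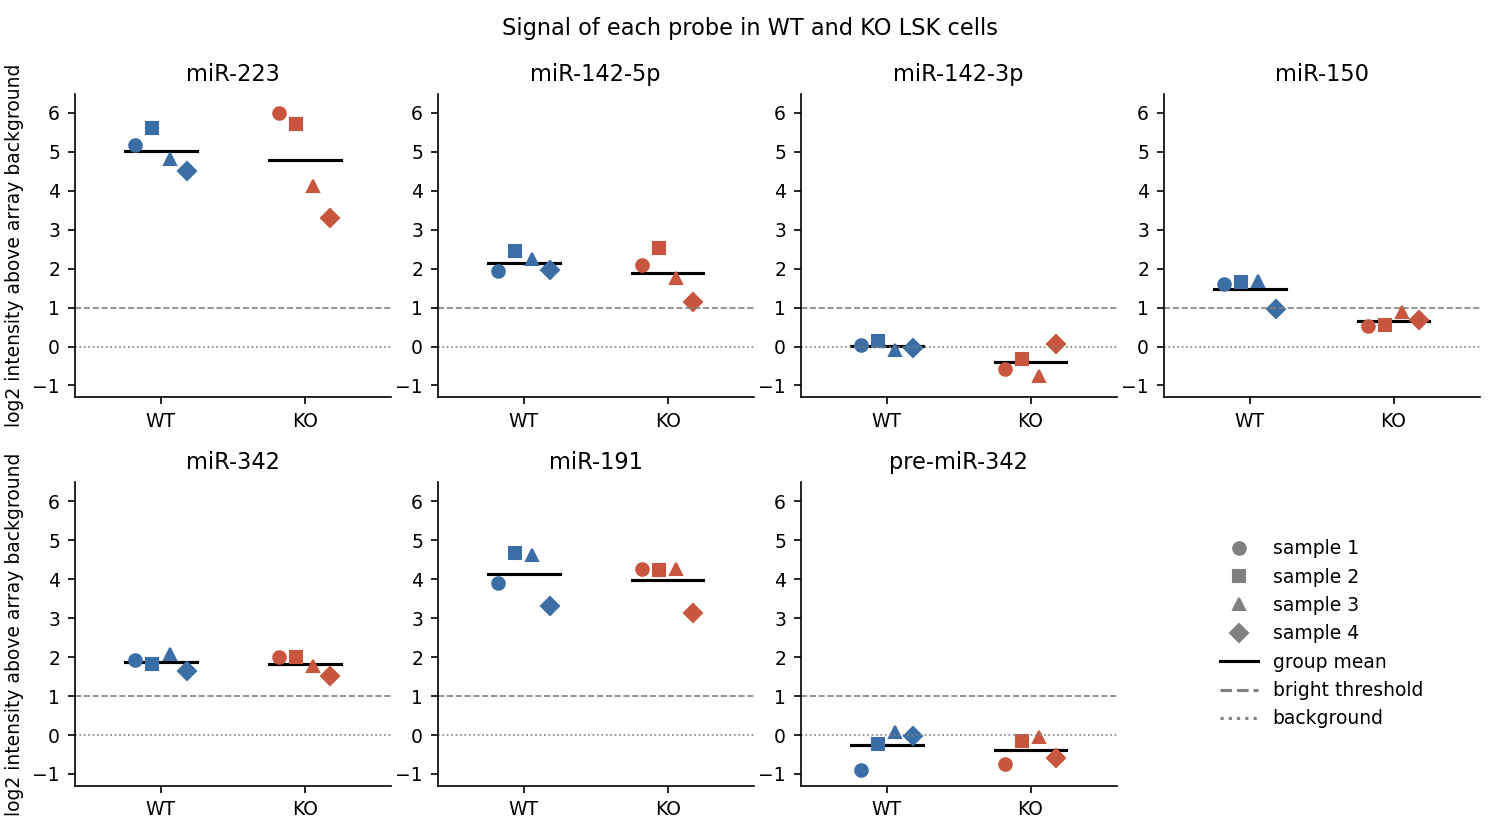
Signal of the 6 mature probes and of the precursor probe of miR-342 in each mouse, as log2 intensity above the background of its array. Points are mice, marker shapes the sample number, black lines the mean of 4 mice, the dotted line background and the dashed line the level above which a name is called bright. The KO mice spread on both sides of WT for miR-223, and lie below WT without overlap for miR-150.

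miR-223, the myeloid member, was far above background in every mouse. Its intensity in WT was 1211 in WT 1, 1607 in WT 2, 709 in WT 3 and 579.8 in WT 4. In KO it was 2072 in KO 1, 1745 in KO 2, 438 in KO 3 and 237 in KO 4. The KO mice thus enclosed the WT mice, with KO 1 and KO 2 above all of them and KO 3 and KO 4 below all of them. From the highest to the lowest mouse the signal spanned 8.74-fold. The mean log2 intensity was 19.85 ± 0.68 in WT and 19.58 ± 1.53 in KO (SD, n = 4 each). The difference of -0.27 (SE 0.67) had a 95% interval of -1.76 to 1.21, or 0.30-fold to 2.32-fold, and an adjusted p of 1.00 in limma.

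By SD, miR-223 had rank 2 of the 94 bright mature names in KO and rank 16 in WT. The bright names as a whole had a median SD of 0.52 in WT and 0.70 in KO, and 77 of the 94 spread more in KO than in WT. Within samples 1-2 the KO minus WT difference of miR-223 was 0.45 on the log2 scale, and within samples 3-4 it was -0.99. A positive value in samples 1-2 with a negative one in samples 3-4 was seen for 37.2% of bright names. The interaction of genotype and sample set, chosen after seeing the data, was -1.44 (SE 0.47) for miR-223. It had an unadjusted p of 0.0248 and an adjusted p of 0.984 in limma, where 3% of the 433 names passed without adjustment and 0% with it. Without KO 4 the genotype difference was 0.30 (SE 0.54), of the opposite sign.

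miR-223 also varied with the sets of samples. With genotype in the fit, samples 3-4 lay 1.84 log2 units (SE 0.36) below samples 1-2 for miR-223, and this coefficient of -1.84 had rank 2 by size among all 433 mature names. Background itself differed by -0.39 and the median bright name by -0.73 between the sets. For the other members the set coefficient was between -0.42 (miR-150) and -0.87 (miR-142-5p). With the sets as a block, the genotype difference of miR-223 stayed at -0.27, with a smaller SE of 0.36 (adjusted p = 0.924 in limma). The origin of the difference between the sets was not tested.

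miR-142, made in nearly all blood cells, gave signal from one arm. The probe for miR-142-5p read 127, 181, 121 and 100.1 in WT 1 to WT 4. In KO it read 137 in KO 1, 193 in KO 2, 86.6 in KO 3 and 52.7 in KO 4. KO 3 and KO 4 were the lowest mice, as for miR-223, KO 2 was the highest, and the groups overlapped. The mean log2 intensity was 16.98 ± 0.36 in WT and 16.68 ± 0.81 in KO (SD, n = 4 each). The log2 difference was -0.30 (SE 0.38, 95% interval -1.15 to 0.55, adjusted p = 1.00 in limma), with 0.10 in samples 1-2 and -0.70 in samples 3-4. Without KO 4 it was 0.03 (SE 0.31).

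The probe for miR-142-3p stayed near background, with a mean of 0.01 log2 units relative to it in WT and -0.40 in KO. It read 34.1, 36.0, 23.7 and 24.7 in WT 1 to WT 4. In KO the values were 21.6, 26.6, 14.9 and 24.9 in KO 1 to KO 4. The groups overlapped, and 3 of the 8 values were above the background of their array. The log2 difference of -0.44 (SE 0.25, adjusted p = 1.00 in limma) therefore says little on the amount of this arm, and without KO 4 it was -0.51.

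The balance of the arms of miR-142, as log2 intensity of 5p minus 3p, was 2.15 ± 0.22 in WT and 2.29 ± 0.81 in KO (SD, n = 4 each). By mouse it was 1.90, 2.33, 2.35 and 2.02 in WT 1 to WT 4. In KO it was 2.66, 2.86, 2.54 and 1.08 in KO 1 to KO 4. KO 1, KO 2 and KO 3 were above every WT mouse and KO 4 below every one. The difference of 0.13 (SE 0.39, 95% interval -0.77 to 1.04) had an adjusted p of 0.901 over the 44 miRNAs with both arms in the mature table, of which 0% were called in limma, and 0 had an unadjusted p under 0.05. Without KO 4 it was 0.54. The 3p probe was bright on 0 of 8 arrays, and its readings enter this balance as much as those of 5p do. In KO 3 the 5p signal was 1.77 log2 units above background, below every WT mouse, and the balance was above every WT mouse with 3p at -0.76.

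miR-150, the lymphocyte miRNA, was the one member whose groups did not overlap. Its intensity was 101 in WT 1, 105 in WT 2, 82.0 in WT 3 and 49.8 in WT 4. The KO mice lay close together, at 46.1 in KO 1, 48.6 in KO 2, 47.2 in KO 3 and 38.6 in KO 4. All 4 KO values were below all 4 WT values, but WT 4 exceeded the highest KO mouse by only 0.03 log2 units. Of all mature names 0.924% were lower in KO without overlap (4 of 433) and 0% higher.

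The mean log2 intensity of miR-150 was 16.31 ± 0.49 in WT and 15.46 ± 0.15 in KO (SD, n = 4 each), 1.80-fold lower in KO. The log2 difference of -0.85 (SE 0.26, 95% interval -1.43 to -0.27) did not pass adjustment over all mature names (adjusted p = 0.605 in limma). Without adjustment p was 0.00839 in limma, with rank 6 of 433. An unadjusted p under 0.05 was found for 4.39% of the names. The direction was shared by both sample sets, with -1.12 in samples 1-2 and -0.58 in samples 3-4, and without KO 4 the difference was -0.78 (SE 0.28). Against background, miR-150 lay 1.48 log2 units higher in WT and 0.66 in KO, so part of the KO signal is background and the size of the fold is uncertain. With background subtracted the difference was -1.66 (adjusted p = 0.565 in limma), and with arrays centred on the median of their bright names, a setting chosen after seeing the data, it was -0.47 (adjusted p = 0.497). The groups overlapped in that setting and after quantile normalization, and did not overlap in the other 4 transformations tried. In these 4, the names lower in KO without overlap were 16 of 433 with arrays centred on their median, 18 relative to background, 6 with background subtracted and 4 with a pseudocount of 1000. The pseudocount is the same on every array and cannot reorder the mice for 1 probe, so its lack of overlap was fixed in advance.

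**Figure D2:**
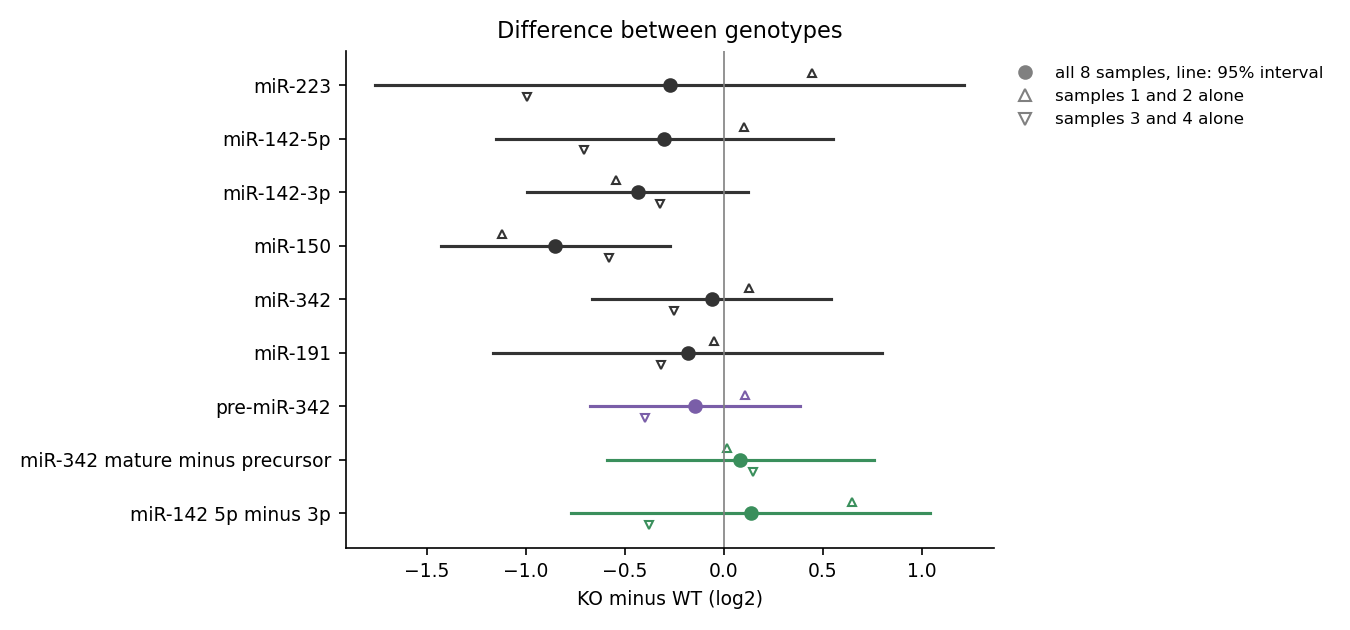
Difference between genotypes, KO minus WT on the log2 scale, for the 6 mature probes, the precursor probe, the form balance of miR-342 and the arm balance of miR-142. Filled circles are the fit over 8 samples with its 95% interval, and open triangles the differences within samples 1-2 and within samples 3-4. The interval of miR-150 (-1.43 to -0.27) lies below 0 before adjustment for multiple tests, and the other 8 include 0.

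miR-342, which lies within Evl and is found in lymphoid and myeloid cells, spanned 1.95-fold over the 8 mice, the least of the mature members. Its intensity was 126 in WT 1, 116 in WT 2, 107 in WT 3 and 79.3 in WT 4. In KO it was 129.7 in KO 1, 134 in KO 2, 87.1 in KO 3 and 68.8 in KO 4. The groups overlapped, with KO 1 and KO 2 highest and KO 4 lowest. The mean log2 intensity was 16.69 ± 0.29 in WT and 16.63 ± 0.47 in KO (SD, n = 4 each). The log2 difference was -0.06 (SE 0.27, adjusted p = 1.00 in limma), with a 95% interval of -0.66 to 0.54, or 0.63-fold to 1.45-fold. Without KO 4 it was 0.12 (SE 0.26).

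The precursor of miR-342, the only member hairpin with a probe, was not above background in either group. It read 17.9, 28.0, 26.6 and 25.3 in WT 1 to WT 4. In KO it read 19.3, 30.04, 24.3 and 15.9 in KO 1 to KO 4. The groups overlapped, and 1 of 8 values was above the background of its array. The log2 difference was -0.14 (SE 0.24, adjusted p = 0.999 in limma), and 0% of the 274 precursor names were called, with 7 at an unadjusted p under 0.05. Without KO 4 the difference was 0.0056 (SE 0.24).

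Mature minus precursor signal of miR-342 on the log2 scale was 2.82, 2.06, 2.01 and 1.65 in WT 1 to WT 4. In KO it was 2.75, 2.16, 1.84 and 2.11 in KO 1 to KO 4, all within the range of the WT mice. The difference between genotypes was 0.08 (SE 0.29, 95% interval -0.59 to 0.76), with an adjusted p of 0.95 in limma over the 263 names found in both tables, of which 0% were called and 17 had an unadjusted p under 0.05. Relative to background, the precursor probe, bright on 0 of 8 arrays, varied more than the mature one, from -0.89 to 0.07 log2 units against 1.52 to 2.08. In plain intensity the precursor spanned 1.88-fold and the mature probe 1.95-fold over the mice. The highest balance, in WT 1, went with the lowest precursor value relative to background, while the lowest precursor intensity was in KO 4.

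miR-191, the broadly expressed member, was well above background in every mouse. Its intensity was 497 in WT 1, 842 in WT 2, 629 in WT 3 and 252 in WT 4. In KO it was 616 in KO 1, 634 in KO 2, 486 in KO 3 and 210.1 in KO 4. Sample 4 was the lowest of each group, and KO lay within or just below the range of WT. The mean log2 intensity was 18.95 ± 0.74 in WT and 18.77 ± 0.75 in KO (SD, n = 4 each). The log2 difference was -0.18 (SE 0.44, 95% interval -1.16 to 0.80, adjusted p = 1.00 in limma), and 0.18 (SE 0.37) without KO 4. The mature probe of its partner miR-425, from the same host gene, was not bright and had a log2 fold change of -0.10 (SE 0.36). The precursor probe of miR-425 was bright, with a log2 fold change of -0.27 (SE 0.34).

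**Figure D3:**
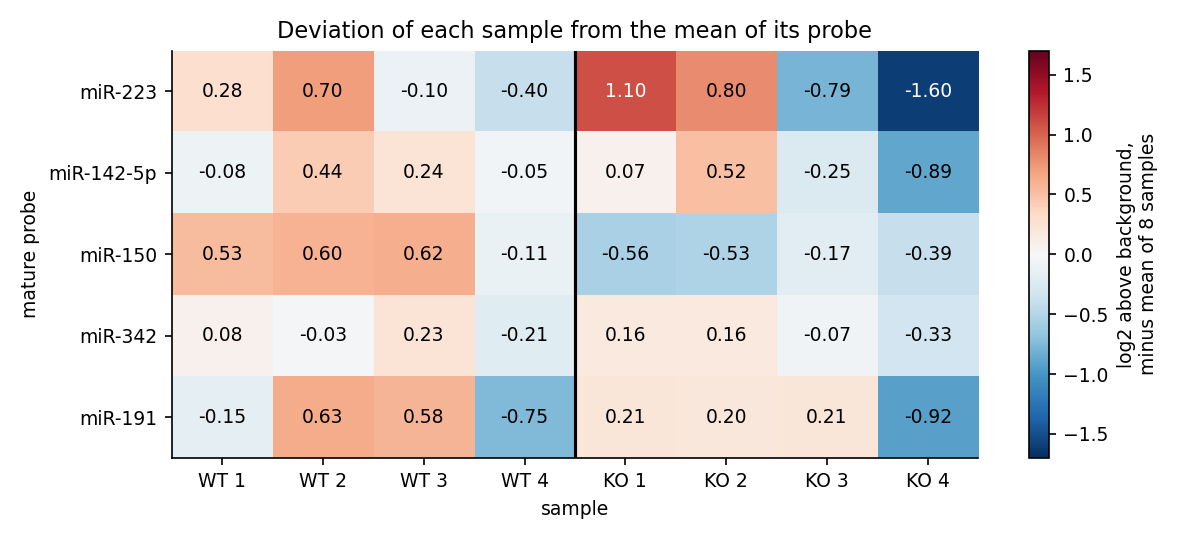
Deviation of each mouse from the mean of 8 samples, in log2 units above array background, for the 5 bright mature probes. miR-223 runs from 1.10 in KO 1 to -1.60 in KO 4, and miR-150 is negative in all 4 KO mice and positive in 3 of 4 WT mice.

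The members did not follow one profile over the mice. Likeness was measured as the mean absolute difference of log2 signal above background over the 8 arrays, after each name was centred on its own mean, so small values mean like profiles. Among the 5 bright members the closest pair was miR-142-5p and miR-342 (0.25) and the most distant was miR-150 and miR-223 (0.77). The arrays share depth and background, which enters all of these values. Compared with the 89 other bright mature names, miR-223 was closest to miR-10a-1 (0.24), miR-17-5p (0.31) and miR-107 (0.32), against a median of 0.59. miR-150 was closest to miR-130a (0.19), miR-329 (0.21) and miR-29b-2 (0.26), against a median of 0.47. The log2 fold changes of these 3 were -0.93 (SE 0.32), -0.69 (SE 0.32) and -0.44 (SE 0.29). They were picked for likeness to miR-150 over the same WT and KO arrays, so their negative sign follows from the choice and is no separate evidence.

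miR-142-5p was closest to miR-92-1 (0.15), miR-106a (0.16) and miR-26b (0.16), against a median of 0.31. miR-191 was closest to miR-30d (0.14), one of the names for miR-181a-5p (0.16) and miR-93 (0.18), against 0.37. miR-342 was closest to miR-706 (0.17), miR-128a (0.17) and miR-679 (0.18), against 0.34. Likeness here is a description of 8 arrays.

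**Figure D4:**
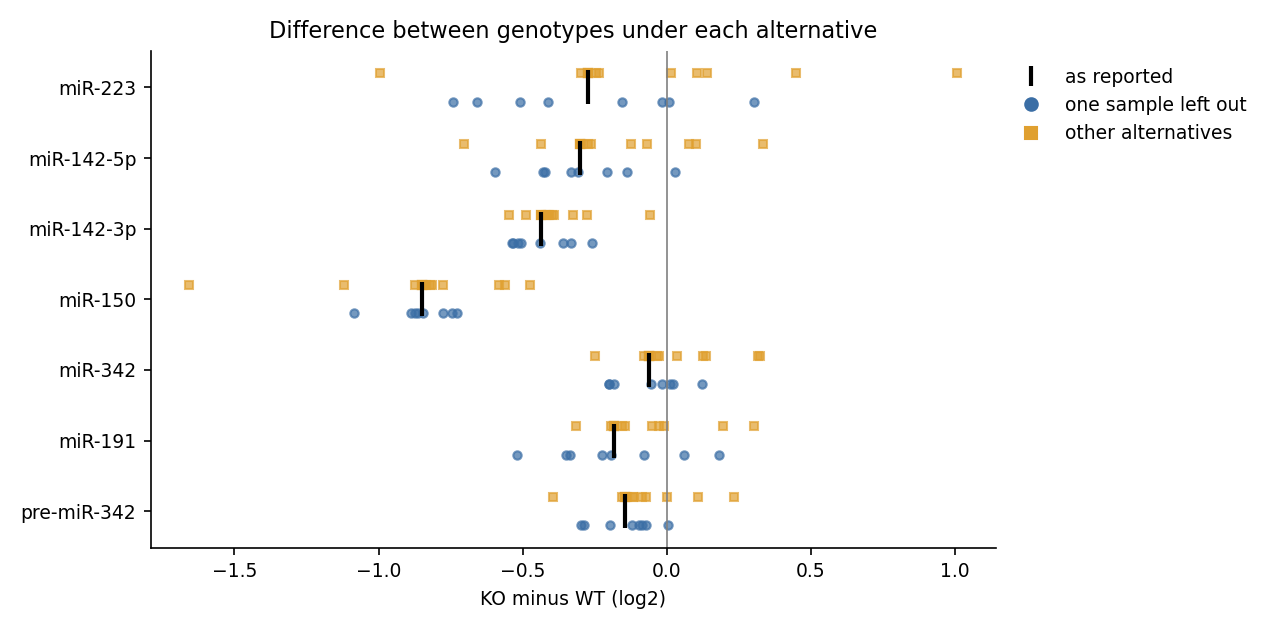
KO minus WT difference on the log2 scale for each probe as reported (black bar), with 1 sample left out (circles) and under the other processing alternatives (squares). miR-150 and miR-142-3p stay below 0 in all alternatives run, and the other 5 probes take both signs. The filter on dim names, highest-probe choice, intensity trend and blocks cannot move these differences.

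Other lineage miRNAs were counted for comparison, as lists chosen with earlier results of these data known. Of further lymphoid miRNAs, 10 names were measured and 6 were bright. Of the 10, 7 had lower and 3 higher values in KO, 0 were called, and the median log2 fold change was -0.30 beside -0.04 over all mature names. miR-181b-2, of a family that promotes lymphoid development, had -0.71 (SE 0.40), and miR-155, induced in activated lymphocytes and myeloid cells, had 0.01 (SE 0.46). The other 2 named by the rule were one of the miR-181a-5p names with -0.62 (SE 0.36) and miR-181b-1 with -0.23 (SE 0.32).

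Of the myeloid list 6 names were measured and 5 were bright, 3 of the 6 were lower and 3 higher, 0 were called and the median was -0.20. At an unadjusted p under 0.05 in limma 1 of the 6 was lower and 0 were higher. miR-130a had -0.93 (SE 0.32), miR-29a -0.90 (SE 0.54), miR-27a 0.01 (SE 0.25) and miR-24-1-3p 0.10 (SE 0.47). Of these, miR-130a and miR-29a also stand in the stem-cell list. miR-29a was bright through its WT mean, at 1.51 log2 units above background against 0.64 in KO.

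Markers of other cells that a sorted fraction could hold were read on the same arrays, as the sum over a list of intensity divided by array background. A name at background adds 1 to such a sum, so sums of lists of different length are not compared. For the 3 erythroid names, none bright, the sum was 2.41 to 3.67 in WT and 3.41 to 6.51 in KO. Per name this was 0.80 to 1.22 in WT and 1.14 to 2.17 in KO. Of these 3, 1 was lower and 2 higher, 0 were called, and the median log2 fold change was 0.03. At an unadjusted p under 0.05 in limma 1 was higher, where 4.39% of all mature names had such a p in either direction. For the 10 megakaryocyte names the sum was 16.2 to 26.1 in WT and 8.64 to 17.4 in KO. Of the 10, 9 were lower, 0 were called, 3 were lower at an unadjusted p under 0.05, and the median log2 fold change was -0.90. The 14 names of the stem-cell list, which shares miR-125b, miR-126 and miR-10a with the megakaryocyte list, summed to 25.6 to 41.9 in WT and 13.2 to 27.8 in KO. All 14, which cover 9 miRNAs, had negative values, 0 were called, 3 had an unadjusted p under 0.05, and the median was -0.82. The lymphoid, stromal or endothelial and non-haematopoietic lists held 0 names with such a p. Of all mature names 64.9% were lower in KO, and of the bright ones 80.9%. These lists were not counted without KO 4, where 35.6% of all mature names were lower. miR-126-5p had -0.83 (SE 0.44), miR-10a -0.60 (SE 0.46) and miR-10a-1 -0.32 (SE 0.53). miR-126-5p and miR-10a were bright through their WT means, each 1.56 log2 units above background, against 0.75 and 0.99 in KO.

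The 10 lymphoid names summed to 35.6 to 76.4 in WT and 25.7 to 51.0 in KO, and the 6 myeloid names to 14.5 to 23.0 in WT and 9.88 to 19.3 in KO. The 20 stromal or endothelial names summed to 31.5 to 65.0 in WT and 27.0 to 49.1 in KO, with a median log2 fold change of -0.01, and the bright ones were miR-26a-2 at -0.62 (SE 0.51) and miR-26a-1 at -0.43 (SE 0.51). The 33 non-haematopoietic names summed to 38.5 to 41.7 in WT and 35.7 to 38.5 in KO, with a median of -0.03. Per name this sum was 1.17 to 1.26 in WT and 1.08 to 1.17 in KO, near background. In this list 2 names were bright, miR-7-2 at -0.35 (SE 0.26) and miR-375 at -0.20 (SE 0.20). The part of these cells in the values of miR-150, miR-223 and the other members was not tested.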

How the data were processed

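miRNA levels were measured with 1-colour arrays in 4 KO and 4 WT samples of LSK cells. Per the labels, 5 µg of TRIzol-extracted RNA was biotin-labelled with a random octamer primer and detected with streptavidin-Alexa647. The deposited values are intensity, which the file header, a template text, calls normalized (scaled) signal; scaling and background treatment are nowhere stated in the labels or headers. A further deposited table equalled the mature one in all 4168 cells. Probes of one name were averaged after log2(value + 1) (433 mature and 274 precursor names). Array background was the mode of log2 values over both tables. Tests used R 4.3.3 and limma 3.58.1 (lmFit, eBayes, no block, adjusted p threshold 0.05), checked on simulated data. Differences between forms or arms were taken per sample and fitted alike. The samples are labelled biological replicates, and their number limits the precision. Members and lists were chosen with earlier results of these data known. Named miRNAs were the members, up to 4 bright names per list (2 highest and 2 lowest) and the 3 names most like each bright member. Alternatives covered scaling, background, filters, blocks, sample sets, scanner label and omission of each sample. Figures used Python 3.11.15 and matplotlib 3.10.9.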

Additional observations from a re-analysis of the deposited data

How the results depend on the processing

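No member was called under any of the 22 alternatives set at the outset or the 1 chosen after seeing the data, with the mature, precursor, form or arm fits, as in the reported fits, and 0 of all names tested passed in any of them. miR-150 and miR-142-3p kept a negative difference throughout, over -1.66 to -0.47 and -0.55 to -0.06 log2 units. The others changed sign, and the cause was not tested. Some alternatives cannot change the difference of a name with 1 probe. These are the filter on dim names, the highest-probe choice, the intensity trend and the blocks by replicate number or sample set. The sign under them was fixed in advance and is no support. Quantile normalization gave 0.014 for miR-223 and 0.13 for miR-342, and array weights gave 0.14 and 0.035. Centring on bright names gave 0.076 for miR-142-5p, 0.19 for miR-191, 0.10 for miR-223, 0.31 for miR-342 and 0.23 for its precursor; it moved the median of all mature names to 0.33 and the share lower from 64.9% to 18.01%, and quantile normalization moved that share to 42.5%. Samples 1-2 alone gave 0.10 for miR-142-5p, 0.45 for miR-223, 0.13 for miR-342 and 0.11 for its precursor. The samples labelled scanner 4000B, which leave out KO 3 and KO 4, gave 0.33, 1.01, 0.32 and 0.0014 for these and 0.30 for miR-191. The arm balance of miR-142 was -0.026 with background subtracted and -0.38 in samples 3-4. With 1 sample left out, the ranges were -0.74 to 0.30 for miR-223, -0.60 to 0.030 for miR-142-5p, -0.52 to 0.18 for miR-191, -0.20 to 0.12 for miR-342, -0.30 to 0.0056 for its precursor, -0.095 to 0.31 for its form balance and -0.058 to 0.54 for the arm balance. The filter on dim names left no fit for miR-142-3p, the precursor, the form balance and the arm balance.

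With replicate number as a block, 0 of 433 mature names passed and 48 had an unadjusted p under 0.05, against 19 without it, and miR-150 had adjusted p = 0.230 in limma. The numbers were not taken as pairs because no label states a pairing. Same-numbered mice deviated together with correlations of 0.093 to 0.348 over all mature names. Over bright names the correlations were 0.219 to 0.730, so how far such mice deviated together depends on the names used. In both, 3 of 4 WT mice matched their own number best and WT 2 matched KO 1. Adjusted p of miR-150 ranged from 0.140 to 0.999 over the alternatives. Signals near background (miR-142-3p, the precursor of miR-342 and miR-150 in KO) limit what these arrays can show.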
